A study of Mus musculus with 7 samples.

Results

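The genes described are 47 components of the transforming growth factor beta (TGF-beta) and bone morphogenetic protein (BMP) pathways, taken by gene symbol from a table of 19144 symbols. They comprise 14 ligands, 12 receptors and co-receptors, 8 Smads, 9 secreted or membrane antagonists and modulators, and the 4 Id genes. All 47 had a row in the table, and 36 reached a mean of 1 FPKM (reads scaled for gene length and library total) over the 7 libraries, the level required for testing. The other 11 members are given by their values. The RNA was that of GFP-positive cells, sorted at E10.5 out of arches 3 to 6 of the pharynx, which the labels call cardiac neural crest cells. Both groups carried Wnt1-Cre2, a recombinase active in the neural crest, and the mTmG reporter, which turns on GFP after recombination. The 4 wild-type libraries came from Wnt1-Cre2; Chd7 +/+; mTmG embryos, and the 3 Chd7 deletion libraries from Wnt1-Cre2; Chd7 loxp/loxp; mTmG embryos. The cross given in the labels used mothers with floxed Chd7 on both chromosomes, from which each embryo would inherit a floxed copy, so the control genotype was taken as labelled. The number of embryos behind a library is not given in the sources used here, and p-values therefore measure the spread between libraries, which may be partly technical.

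Ligands of the family are secreted dimers that bring together type I and type II receptor kinases. BMP receptors phosphorylate Smad1, Smad5 and Smad9, while TGF-beta and activin receptors phosphorylate Smad2 and Smad3, and both sets enter the nucleus with Smad4. Smad6 and Smad7 inhibit the pathway and are induced by it, and the Id genes, whose products block basic helix-loop-helix transcription factors, are among the best known BMP targets. In the cardiac neural crest the pathway is known for its part in the formation of the outflow tract and the arch arteries. The comparison addressed which of these components differ when CHD7, a chromatin remodelling enzyme, is removed from the neural crest.

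Chd7 lay between 13.9 and 14.6 FPKM in the wild type and between 7.5 and 7.91 FPKM after deletion, with a log2 fold change of -0.80 (limma, adjusted p = 0.00266). Judged by the smallest steps between values, the libraries held 0.865 to 1.29 times as many reads as wild type 1, and their FPKM summed to 170809 (Chd7 deletion 1) to 209560 (wild type 4). Whatever the genotype, a first principal component (60.5% of the variance) separated library numbers 1 and 2 from 3 and 4, and Chd7 deletion 1 was alone among the deletion libraries on its side. Summed markers of glia (12 genes, all in the table) ranged from 90.1 to 104 FPKM in the wild type and from 139 to 152 FPKM after deletion. Summed markers of arch mesenchyme (16 genes, all in the table) ranged from 151 to 205 FPKM in the wild type and from 83.4 to 122 FPKM after deletion. Summed melanoblast markers (6 genes, 5 of them in the table) ranged from 11.1 to 14.3 FPKM and from 17.7 to 20.3 FPKM. Sums of the other marker lists overlapped between the groups. Those lists were autonomic and sensory neurons, smooth muscle, skeletal muscle, cardiomyocytes, endothelium, epithelium, blood and macrophages. In sorted bulk RNA, fewer cells of a type and less RNA per cell cannot be told apart. The part of the glia, arch mesenchyme and melanoblast lists in the results that follow was not tested.

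Of the 36 members tested, 1 fell after deletion of Chd7 and none rose, where 98 of all 11039 genes tested (0.888%) changed, 0.408% upwards and 0.48% downwards. The gene that fell was Bmpr1b, which encodes a type I BMP receptor. At an unadjusted p below 0.05 there were 8 of the 36 members, where all genes gave 7.38%. The median log2 fold change of the 36 was -0.06, beside -0.04 for all genes tested. Below 0 stood 27 of the 36 members, where 65.4% of all genes did, and above 0 stood 9, but after rescaling the libraries to equal sums the split was 18 and 18. With the replicate number as a block, 366 of all genes (3.32%) were called, 2.27% of all genes as lower and 1.04% as higher, and Bmpr1b was again the 1 member. Wild type 2 has no deletion library of its number, so the genotype difference under the block rests on numbers 1, 3 and 4.

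The sequences before 3 RefSeq start sites are shown for Bmpr1b, the member that changed, and for Bmp5, a BMP ligand gene whose groups stood apart at low level. Each line gives 240 bases that end 10 bases before the start, 5′ to 3′ on the gene's strand, from RefSeq on GRCm38.p6, and none of the 3 windows overlaps an annotated exon. Capitals mark CAGACA or its reverse complement TGTCTG, which contain the CAGA core of a Smad-binding element. Only these full forms were searched, and the shorter CAGA or TCTG alone is not marked.
Bmpr1b, start 1 (chr3:141982275-141982514, minus strand): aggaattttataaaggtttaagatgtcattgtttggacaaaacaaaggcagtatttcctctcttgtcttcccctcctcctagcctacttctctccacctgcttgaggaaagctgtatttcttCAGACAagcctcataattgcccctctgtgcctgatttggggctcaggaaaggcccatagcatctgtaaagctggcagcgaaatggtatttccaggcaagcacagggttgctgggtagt
Bmpr1b, start 2 (chr3:141931599-141931838, minus strand): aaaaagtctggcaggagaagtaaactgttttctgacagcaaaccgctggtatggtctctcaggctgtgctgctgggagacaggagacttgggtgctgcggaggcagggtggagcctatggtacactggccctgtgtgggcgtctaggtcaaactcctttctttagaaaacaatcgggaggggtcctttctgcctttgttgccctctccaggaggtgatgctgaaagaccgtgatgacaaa
Bmp5 (chr9:75775115-75775354, plus strand): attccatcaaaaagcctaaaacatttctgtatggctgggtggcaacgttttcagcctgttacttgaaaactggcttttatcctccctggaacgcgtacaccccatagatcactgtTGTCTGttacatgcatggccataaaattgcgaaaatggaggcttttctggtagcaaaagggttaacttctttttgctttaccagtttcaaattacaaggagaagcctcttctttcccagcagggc
The CAGACA motif, on either strand, occurred once in the first Bmpr1b window and once in the Bmp5 window, and in 16.5% of the 32851 start windows of the table. GGCGCC, a GC-rich motif bound by BMP Smads that reads the same on both strands, was in none of the 3 and in 9.08% of all windows. The 2 motifs do not overlap in sequence. Bmpr1b start 3 is not shown because its window overlaps a Bmpr1b exon, and it held neither motif. All 3 Bmpr1b windows lie inside the span of the gene in GENCODE M21, whose 5′ end on the minus strand is at 142169425. Which start these cells use was not examined. GC content was 46.2%, 52.9% and 56.7% before Bmpr1b starts 1 to 3 and 42.9% before Bmp5, against 78.3% in the matching window of Bmpr1a, which overlaps an exon and holds 1 GGCGCC. Of the 47 members, 32 had a start in the table, 9 of them with GGCGCC and 4 with CAGACA in at least 1 window. A member can have several windows, so these counts of genes cannot be compared with the shares of windows. A match describes the letters of a window and is not evidence of binding.

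**Figure D1:**
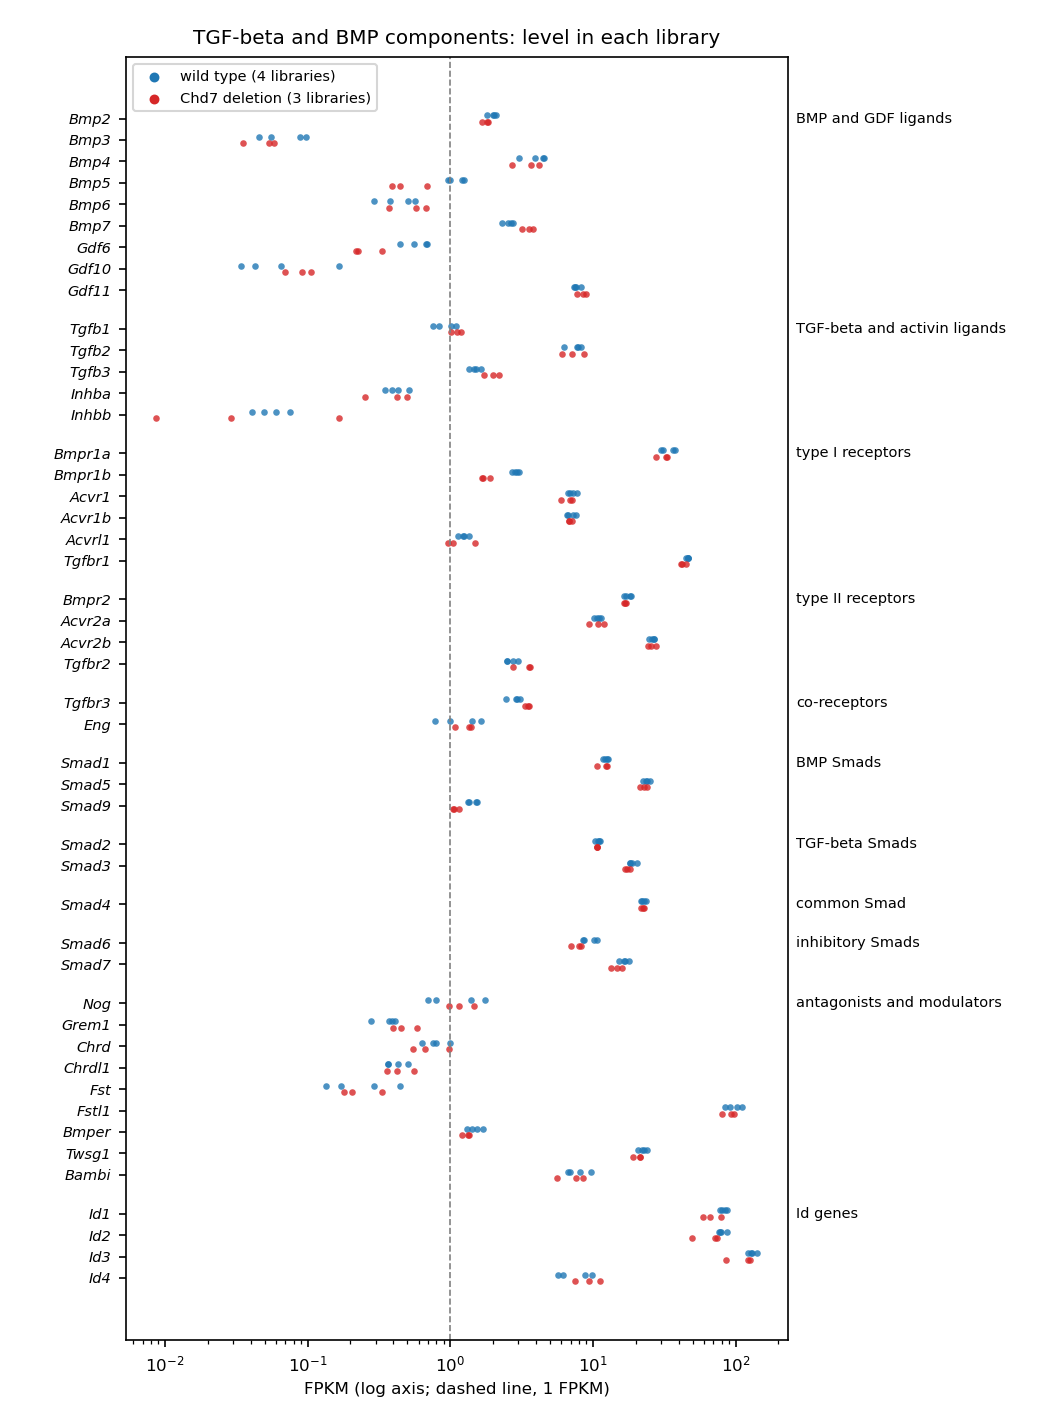
Level of each of the 47 members in each library, in FPKM on a log axis, by component class, with wild-type libraries in blue and Chd7 deletion libraries in red. Fstl1 and Id1 to Id3 lie at the upper end, BMP ligands at a few FPKM or below, and the dashed line marks the 1 FPKM required for testing.

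On the FPKM scale, which divides by gene length, the highest ligand levels in the wild type were those of Gdf11, a patterning ligand that acts through activin-type receptors, at 7.65 ± 0.394 (SD, n = 4), and Tgfb2, a TGF-beta needed for outflow tract septation in the mouse, at 7.56 ± 0.866. Bmp4 followed at 4.00 ± 0.704 FPKM, Bmp7 at 2.57 ± 0.182 FPKM and Bmp2 at 1.98 ± 0.118 FPKM. The spread of Gdf11 and Tgfb2 overlapped. Among the 14 ligands, 7 were tested, none was called, and the 7 not tested were Bmp3, Bmp5, Bmp6, Gdf6, Gdf10 and the activin subunit genes Inhba and Inhbb. At an unadjusted p below 0.05 were Bmp7 and Tgfb3.

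Bmp7, a BMP of the same subgroup as Bmp5 and Bmp6, read 2.75, 2.65, 2.33 and 2.54 FPKM in wild type 1 to 4, and 3.82, 3.56 and 3.17 FPKM in Chd7 deletion 1, 3 and 4. Every deletion library was above every wild-type library, by 1.37-fold on the means. The log2 fold change of 0.34 (SE 0.081) did not pass (limma, adjusted p = 0.148, or 0.0518 with the replicate block). It passed with the set of library numbers as a covariate (adjusted p = 0.0138), a fit in which 6.52% of all genes were called. Under the covariate, Bmp7 and Id4 were called higher, as were 1.53% of all genes, and Bmpr1b lower, as were 4.99%.

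Bmp5 read 0.993, 0.971, 1.25 and 1.22 FPKM in the wild type and 0.394, 0.444 and 0.685 FPKM after deletion. Gdf6, a BMP-type ligand of the skull and joints, read 0.561, 0.442, 0.690 and 0.674 FPKM in the wild type and 0.225, 0.219 and 0.335 FPKM after deletion. In both genes all 3 deletion libraries were below all 4 wild-type libraries, at 45.8% and 43.9% of the wild-type mean. The reads behind Bmp5 numbered 119 to 150 in a wild-type library and 53 to 71 after deletion, and those behind Gdf6 62 to 76 and 25 to 32, as read from the whole-number steps of the values. With no filter on level, where 0.324% of 19144 genes were called, Bmp5 did not pass (log2 fold change -0.49, limma, adjusted p = 0.0954), and neither did Gdf6 (-0.34, adjusted p = 0.12).

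Bmp5 and Bmp7 lay on opposite sides of the wild type, while the summed level of the BMP genes overlapped between the groups. The sum of Bmp2, Bmp4, Bmp5, Bmp6 and Bmp7 ranged from 8.86 to 10.6 FPKM in the wild type and from 9.27 to 10.6 FPKM after deletion. Within that sum Bmp7 made up 25.6% ± 3.50 (SD, n = 4) in the wild type and 35.8% ± 4.73 (SD, n = 3) after deletion, with ranges of 21.8% to 29.9% and 32.5% to 41.2%. Bmp5 made up 11.0% ± 0.910 and 5.16% ± 1.62, with ranges of 9.68% to 11.7% and 4.19% to 7.03%. These shares do not depend on the scale of a library, and they were not tested.

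Among the remaining BMP ligands, Bmp4 ranged from 3.05 to 4.58 FPKM in the wild type and from 2.72 to 4.20 FPKM after deletion, and Bmp2 from 1.81 to 2.08 FPKM and from 1.66 to 1.84 FPKM. Gdf11 ranged from 7.33 to 8.22 FPKM and from 7.80 to 9.01 FPKM. In each of these 3 genes the groups overlapped. Bmp6 stood at 0.435 ± 0.122 FPKM (n = 4, SD) in wild-type cells and 0.541 ± 0.155 FPKM (SD, n = 3) after deletion. Bmp3, which opposes other BMPs, and its relative Gdf10 had means below 0.1 FPKM in both groups, on 4 to 25 reads per library, so that a difference was not detectable at this depth.

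Tgfb3 was the one TGF-beta gene whose groups did not overlap. It read 1.51, 1.35, 1.46 and 1.63 FPKM in the wild type and 1.98, 2.20 and 1.74 FPKM after deletion, 1.32-fold higher on the means (log2 fold change 0.25, SE 0.083, limma, adjusted p = 0.386). Chd7 deletion 4 came close to wild type 4. Tgfb1 stood at 0.930 ± 0.158 FPKM (n = 4, SD) in wild-type cells and 1.11 ± 0.0922 FPKM (SD, n = 3) after deletion, and Tgfb2 ranged from 6.31 to 8.28 FPKM and from 6.04 to 8.68 FPKM, both with overlap. Inhba stood at 0.421 ± 0.0681 FPKM (SD, n = 4) and 0.392 ± 0.125 FPKM (SD, n = 3). Inhbb was below 0.2 FPKM in every library, on 1 to 25 reads.

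**Figure D2:**
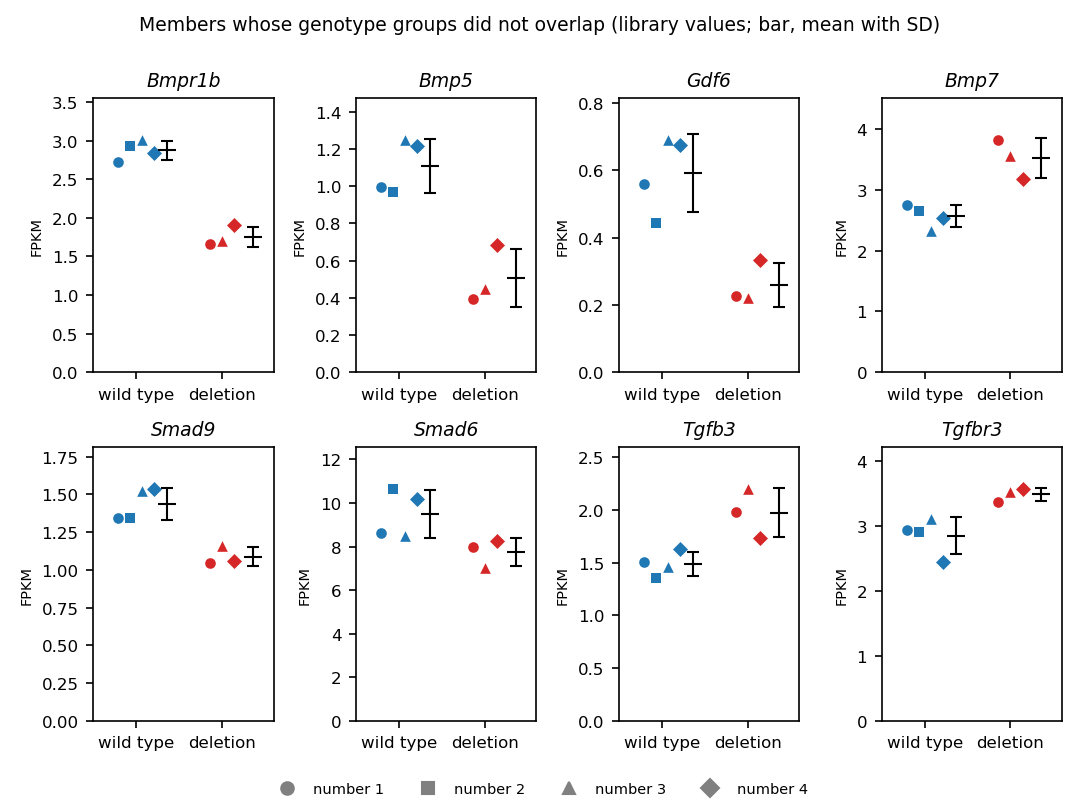
FPKM in each library for 8 of the 10 members whose genotype groups did not overlap, with wild type in blue, Chd7 deletion in red, symbols by library number and bars for the mean and SD. Bmpr1b, Bmp5, Gdf6, Smad9 and Smad6 were lower in every deletion library, and Bmp7, Tgfb3 and Tgfbr3 higher.

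Bmpr1b was the receptor gene that changed. It read 2.73, 2.93, 3.01 and 2.85 FPKM in wild type 1 to 4, and 1.66, 1.70 and 1.91 FPKM in Chd7 deletion 1, 3 and 4. The gap between the groups was wider than the spread within either, with 504 to 733 reads behind each wild-type value and 320 to 362 behind each deletion value. On the log2 scale this was a change of -0.49 (SE 0.071; limma, adjusted p = 0.0218, or 0.0199 with the replicate block), and the mean after deletion was 60.9% of the wild type. Each deletion library was lower than the wild-type library of the same number, at 60.9%, 56.3% and 67.0% for numbers 1, 3 and 4. Bmpr1b spans 141837136 to 142169425 on chromosome 3 of GRCm38, on the minus strand, in GENCODE release M21.

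The call of Bmpr1b did not survive the loss of any one library, although its size hardly changed. Without each of the 7 libraries in turn the log2 fold change ranged from -0.53 to -0.47 and the adjusted p from 0.0541 to 0.12. In libraries numbered 3 and 4 alone, where 1.24% of all genes were called, it was -0.49 (adjusted p = 0.0725), and Chd7 deletion 1 lay 0.52 below the mean of wild type 1 and 2 on the same scale.

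Bmpr1a, the other dedicated type I BMP receptor gene, was expressed at a far higher level, 33.7 ± 3.74 FPKM (n = 4, SD) in wild-type cells and 31.2 ± 3.11 FPKM (SD, n = 3) after deletion. It read 30.9, 30.2, 36.2 and 37.7 FPKM in the wild type and 27.6, 32.8 and 33.2 FPKM after deletion, with overlapping groups (log2 fold change -0.11, limma, adjusted p = 0.951). Over the alternatives it ranged from -0.16 to -0.02, and was nearest to 0 without Chd7 deletion 1 (-0.02) and after scaling to equal sums (-0.04). Bmpr1b therefore contributed 8.12%, 8.83%, 7.68% and 7.03% of the summed FPKM of Bmpr1a and Bmpr1b in wild type 1 to 4, and 5.67%, 4.91% and 5.43% in Chd7 deletion 1, 3 and 4. The sum of both ranged from 33.2 to 40.5 FPKM in the wild type and from 29.3 to 35.1 FPKM after deletion.

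The remaining type I receptors did not pass. Tgfbr1, the type I receptor of TGF-beta, was the most highly expressed receptor of the list, at 46.6, 45.1, 46.8 and 46.3 FPKM in the wild type and 42.1, 44.8 and 41.3 FPKM after deletion. Every deletion library lay below every wild-type library, by a small margin for Chd7 deletion 3 (log2 fold change -0.11, limma, adjusted p = 0.905). Acvr1, which binds BMPs, stood at 7.14 ± 0.434 FPKM (SD, n = 4) and 6.66 ± 0.630 FPKM (SD, n = 3), and the activin receptor gene Acvr1b at 7.03 ± 0.463 FPKM and 6.90 ± 0.199 FPKM. Acvrl1, best known from endothelium, stood at 1.24 ± 0.0885 FPKM and 1.17 ± 0.286 FPKM. All 6 type I receptors lay below 0 on the log2 scale (median -0.10), although Acvr1b turned above 0 after scaling to equal sums or by the median of ratios, Acvrl1 with library weights, and both without 1 of the libraries.

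Type II receptors were likewise not called, 0 of 4 in limma with 1 at an unadjusted p below 0.05. Acvr2b, shared by activins and BMPs, had the highest level of the class at 26.1 ± 0.997 FPKM (SD, n = 4) and 25.9 ± 1.52 FPKM (SD, n = 3). Bmpr2, the dedicated BMP type II receptor, stood at 17.5 ± 0.939 FPKM and 16.8 ± 0.370 FPKM, and Acvr2a at 10.8 ± 0.520 FPKM and 10.8 ± 1.25 FPKM. Tgfbr2, the type II receptor of TGF-beta, was far below its partner Tgfbr1, at 2.78, 2.49, 2.50 and 2.97 FPKM in the wild type and 2.77, 3.57 and 3.64 FPKM after deletion. Chd7 deletion 3 and 4 were above all wild-type libraries and Chd7 deletion 1 was not (log2 fold change 0.23, limma, adjusted p = 0.643).

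Tgfbr3, or betaglycan, a co-receptor that presents TGF-beta2 to the receptors, read 2.93, 2.91, 3.11 and 2.45 FPKM in the wild type and 3.37, 3.52 and 3.57 FPKM after deletion. The groups did not overlap, and the 1.22-fold difference of the means did not pass (log2 fold change 0.22, limma, adjusted p = 0.478). Eng, the endothelial co-receptor gene endoglin, ranged from 0.784 to 1.66 FPKM in the wild type and from 1.07 to 1.40 FPKM after deletion. Summed endothelial markers (14 genes, all in the table, 1 of them below 0.1 FPKM in the wild type) ranged from 7.73 to 12.1 FPKM in the wild type and from 6.36 to 10.3 FPKM after deletion, and their part in the levels of Acvrl1 and Eng was not tested.

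**Figure D3:**
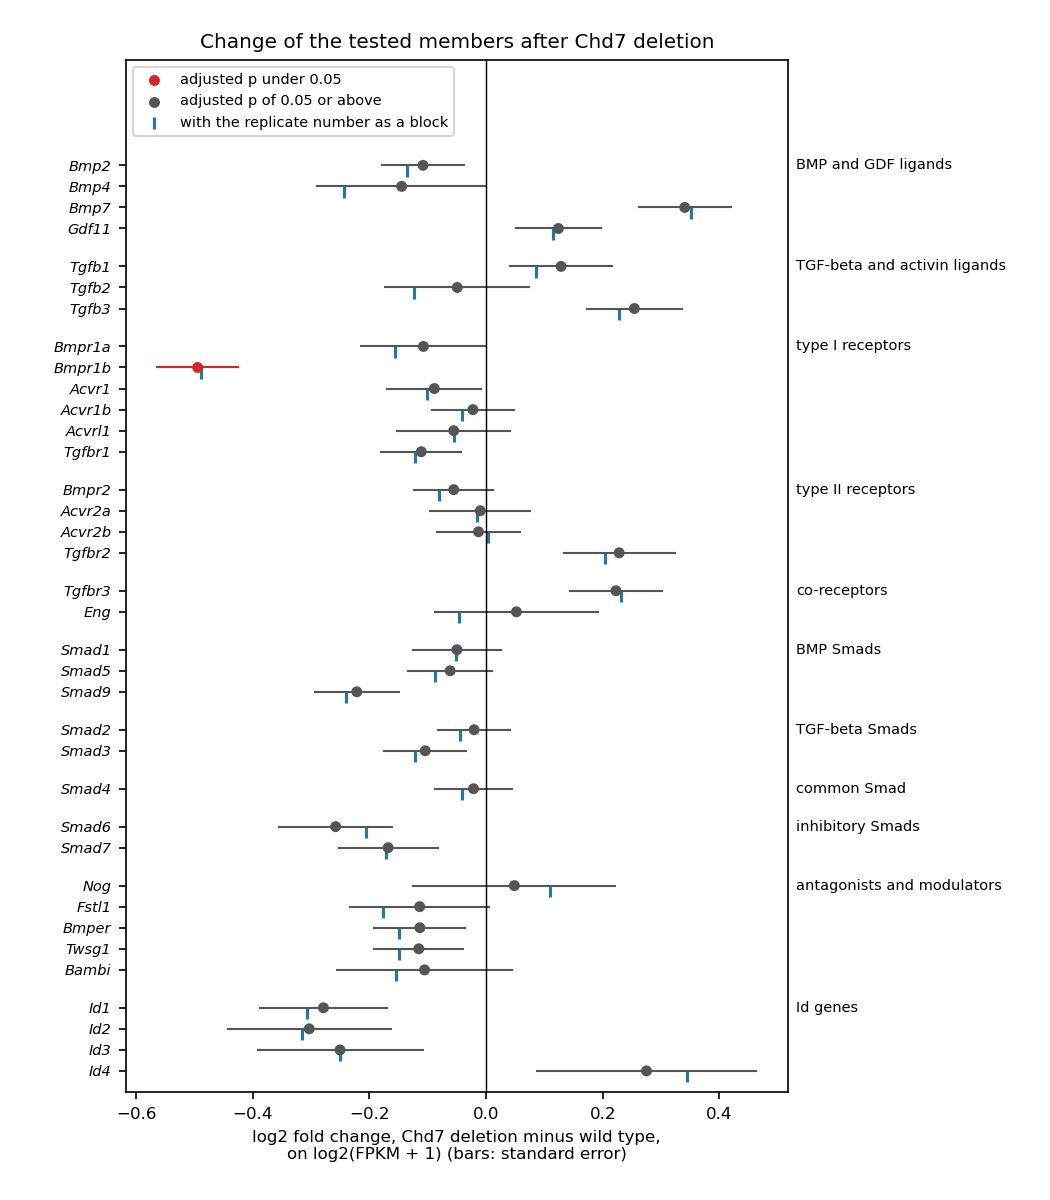
Log2 fold change (Chd7 deletion minus wild type, on log2(FPKM + 1)) of the 36 tested members with its standard error, by class, with the value under the replicate block as a blue tick. Bmpr1b at -0.49 is the one red point, and Bmp7 at 0.34 lies furthest to the right.

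Smads were expressed well above 1 FPKM, apart from Smad9, and none of the 8 was called in limma, with Smad6 and Smad9 at an unadjusted p below 0.05. Smad5 stood at 23.8 ± 1.05 FPKM (n = 4, SD) in wild-type cells and 22.8 ± 1.37 FPKM (SD, n = 3) after deletion, and Smad4 at 22.6 ± 0.897 FPKM and 22.2 ± 0.557 FPKM. Smad3 stood at 18.9 ± 1.05 FPKM and 17.5 ± 0.717 FPKM, Smad1 at 12.3 ± 0.448 FPKM and 11.9 ± 1.05 FPKM, and Smad2 at 10.9 ± 0.418 FPKM and 10.7 ± 0.0685 FPKM. In these 5 genes the groups overlapped.

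Smad9, the least expressed BMP Smad, read 1.34, 1.35, 1.52 and 1.54 FPKM in the wild type and 1.05, 1.16 and 1.06 FPKM after deletion. All deletion libraries were below all wild-type libraries, at 75.8% of the wild-type mean (log2 fold change -0.22, SE 0.074, limma, adjusted p = 0.396). Its share of the summed FPKM of Smad1, Smad5 and Smad9 was 3.83% ± 0.238 (SD, n = 4) in the wild type and 3.05% ± 0.12 (SD, n = 3) after deletion. Smad6, an inhibitory Smad of the BMP branch, read 8.62, 10.7, 8.48 and 10.2 FPKM in the wild type and 7.97, 7.03 and 8.25 FPKM after deletion, without overlap (log2 fold change -0.26, limma, adjusted p = 0.561). Smad7, which inhibits both branches, ranged from 15.2 to 17.9 FPKM and from 13.3 to 16.0 FPKM, with overlap.

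Antagonists and modulators spanned the widest range of levels, from 0.26 FPKM for Fst, the activin-binding follistatin, to 97.5 FPKM for Fstl1, a secreted glycoprotein related to it, in the wild type. Of the 9, 5 were tested and none was called or came below an unadjusted p of 0.05 in limma. Fstl1 ranged from 85.0 to 112 FPKM in the wild type and from 79.9 to 97.1 FPKM after deletion. Twsg1, which can promote or restrain BMP signalling, stood at 22.4 ± 1.36 FPKM (SD, n = 4) and 20.6 ± 1.17 FPKM (SD, n = 3), and Bambi, a pseudoreceptor without a kinase, at 7.86 ± 1.38 FPKM and 7.25 ± 1.47 FPKM. Bmper, a secreted BMP-binding protein gene, stood at 1.49 ± 0.162 FPKM and 1.30 ± 0.0748 FPKM. The BMP-binding antagonists Chrd, Chrdl1 and Grem1 and the activin-binding Fst had means below 1 FPKM in both groups, and the groups overlapped in each.

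Nog, which encodes the BMP antagonist noggin, differed in opposite directions by library number. In libraries numbered 1 and 2 it read 1.75 and 1.41 FPKM in the wild type and 0.977 FPKM in Chd7 deletion 1. In libraries numbered 3 and 4 it read 0.701 and 0.802 FPKM in the wild type and 1.48 and 1.15 FPKM after deletion. Over all libraries the means were 1.16 ± 0.497 FPKM (SD, n = 4) and 1.20 ± 0.255 FPKM (SD, n = 3), and the reads per library ranged from 42 to 109. The interaction of genotype with the set of library numbers did not pass (limma, adjusted p = 0.173, 1 deletion library in the first set).

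Id1, Id2 and Id3 were among the highest members of the list, and their differences between the groups were uneven across libraries. Id1 read 86.9, 77.5, 80.8 and 84.6 FPKM in wild type 1 to 4, and 59.4, 79.3 and 66.0 FPKM in Chd7 deletion 1, 3 and 4. Id2 read 76.1, 77.8, 78.7 and 86.8 FPKM and 49.9, 72.3 and 74.1 FPKM, and Id3 read 128, 131, 122 and 142 FPKM and 85.9, 122 and 126 FPKM. For all 3 genes Chd7 deletion 1 was the lowest of the 7 libraries, and for Id2 alone the groups did not overlap.

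On the means Id1, Id2 and Id3 stood at 82.7%, 82.0% and 85.0% of the wild type, with log2 fold changes of -0.28, -0.30 and -0.25, and none passed (limma, adjusted p = 0.598, 0.721 and 0.855). Against the wild-type library of the same number, Id1 stood at 68.4%, 98.1% and 78.0% for numbers 1, 3 and 4, Id2 at 65.6%, 91.8% and 85.4%, and Id3 at 67.2%, 99.8% and 88.2%. Chd7 deletion 1 also had the lowest sum of FPKM of the 7 libraries. The ribosomal RNA precursor Rn45s made up 8.68% of that sum, against 4.11% to 7.15% in the others. This is a share of FPKM and not of reads. The part of the low sum and of Rn45s in the Id values was not tested. In libraries numbered 3 and 4 alone the log2 fold changes of Id1, Id2 and Id3 were -0.19, -0.17 and -0.09.

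Id4 went the other way, with 9.82, 8.79, 5.72 and 6.20 FPKM in the wild type and 11.2, 9.39 and 7.46 FPKM after deletion. It was higher in libraries numbered 1 and 2 than in 3 and 4 in both genotypes, and each deletion library was above the wild-type library of its number, at 114%, 164% and 120%. Id4 did not pass over all libraries (log2 fold change 0.28, SE 0.19, limma, adjusted p = 0.923) or with the replicate block (adjusted p = 0.115), and it passed with the set of library numbers as a covariate (0.36, adjusted p = 0.0451).

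**Figure D4:**
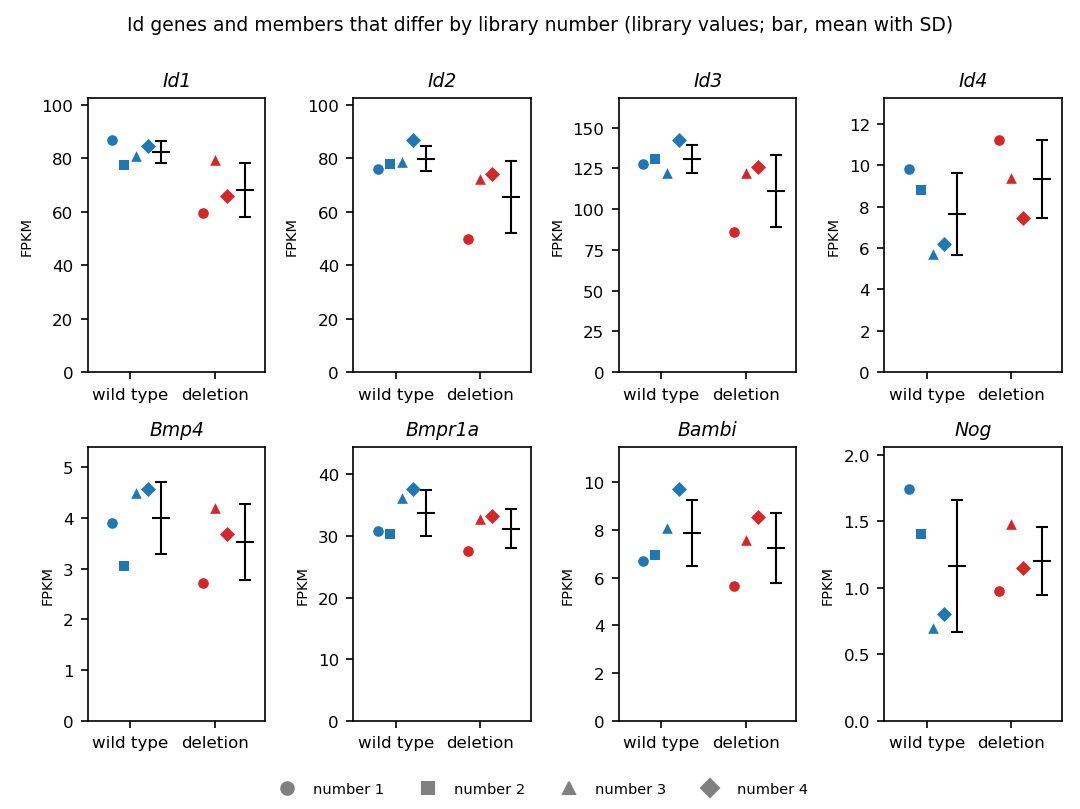
FPKM in each library for the 4 Id genes, Bmp4, Bmpr1a, Bambi and Nog, with wild type in blue, Chd7 deletion in red, symbols by library number and bars for the mean and SD. Chd7 deletion 1 is lowest for Id1, Id2 and Id3, and Nog is high in wild type 1 and 2 and low in wild type 3 and 4.

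At equal genotype, 9 of the 36 tested members differed between libraries numbered 1 and 2 and those numbered 3 and 4, where 44.5% of all genes did, 39.8% lower and 4.73% higher (limma, genotype and number set in one fit). The 8 lower in libraries numbered 1 and 2 were Bmp4, Bmpr1a, Acvr1, Eng, Fstl1, Twsg1, Bambi and Id2, with log2 differences from -0.38 for Bambi to -0.13 for Twsg1, and Id4 was higher by 0.49. Bmpr1b was not among them (-0.05, adjusted p = 0.514). The genotype difference itself differed between the sets in none of the 36 members and in 0.0272% of all genes. At an unadjusted p below 0.05 the interaction held 3 members (Nog, Id2 and Id3), where all genes gave 9.1%.

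In all, the genotype groups did not overlap for 10 of the 47 members, 3 higher and 7 lower after deletion. Of the 36 tested there were 8 (22.2%), where 9.17% of all genes tested did not overlap, 3.00% higher and 6.17% lower. The 8 were Bmpr1b, Bmp7, Tgfb3, Tgfbr1, Tgfbr3, Smad6, Smad9 and Id2, and Bmp5 and Gdf6 were the 2 below the level for testing, where 7.39% of untested genes with any signal did not overlap (11.3% of those with a mean of 0.3 to 1 FPKM). Overlap was judged on FPKM as deposited, was not examined after rescaling, and can depend on the scale of a library. With equal sums, log2 fold changes of the lower genes among the 8 shrank (Tgfbr1 from -0.11 to -0.04). Those of the higher genes grew (Bmp7 from 0.34 to 0.40).

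Other components of the pathway were counted from a wider list. Of 74 further ligands, receptors, extracellular and intracellular regulators, 34 were tested and none was called in limma, with a median log2 fold change of -0.06. With the replicate block 1 of them fell, the proteoglycan gene Dcn, whose product binds TGF-beta (4.13 ± 1.17 FPKM, SD, n = 4, against 2.06 ± 1.20 FPKM, SD, n = 3; limma, adjusted p = 0.0261, or 0.394 without the block). Its groups overlapped.

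Among 44 gene symbols listed as BMP or TGF-beta targets in some tissue, 36 were tested and 3 fell, where 0.48% of all genes did. Ctgf and Ccn2 in this list name the same gene, and Ltbp2, Pmepa1 and Skil are also in the wider list above. The median log2 fold change was -0.19 and 27 of the 36 stood below 0, beside -0.04 and 65.4% for all genes. Hand2, a transcription factor gene of arches and heart, stood at 15.3 ± 1.96 FPKM (n = 4, SD) in wild-type cells and 6.61 ± 1.40 FPKM (SD, n = 3) after deletion, without overlap (log2 fold change -1.11, limma, adjusted p = 0.0142). The collagen genes Col1a1 and Col3a1 were the other two, with log2 fold changes of -0.65 and -1.22 (limma, adjusted p = 0.0111 for each). With the replicate block 11 of the 36 were lower and 1 was higher, where 2.27% and 1.04% of all genes were, and not all of them are named here. The genes that fell beside the first 3 included the transcription factor genes Msx2, Hand1, Gata6, Atoh8, Snai1 and Snai2 and the matrix gene Postn. Msx2 read 8.01, 8.08, 7.51 and 8.71 FPKM in the wild type and 4.87, 5.81 and 6.66 FPKM after deletion, and its adjusted p was 0.04 with the block and 0.139 without it. Hand2 is also on the list of arch mesenchyme markers, whose sum was lower in every deletion library than in every wild-type library, and the part of that tissue in these levels was not tested. Without wild type 3 or without Chd7 deletion 4 none of the 3 was called, and without Chd7 deletion 3 the count was 1.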

How the data were processed

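The labels' protocols describe total RNA, ribosomal RNA depletion, a strand-specific kit and random priming. The authors deposited 1 table of FPKM values per gene symbol with 1 column per library. HISAT2, Partek, SAMtools, Trimmomatic 0.38, bcl2fastq 2.18.0.12 and the build mm10 are named, without role or order, in the submitters' processing notes. Nothing used here states the annotation, the filters or whether strand was used in counting. FPKM depends on the library total, so a library with more ribosomal RNA reads low for other genes.

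Of 19169 rows, 25 with a date in place of a symbol were left out. The 11039 genes whose mean reached 1 FPKM were tested on log2(FPKM + 1), a scale that understates the change of low genes, with limma 3.58.1 in R 4.3.3 (intensity trend, 2-sided, Benjamini-Hochberg over all genes tested, threshold 0.05). Folds and percentages are ratios of mean FPKM. A group counts as not overlapping where every deletion library lies beyond every wild-type library, in FPKM as deposited. The members, the gene lists and the tests were chosen with earlier results of these data known, and all 47 members are named. Some genes of the target list are not reported here.

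Numbers pair the libraries: deviations from the group means correlated at 0.70, 0.40 and 0.77 for numbers 1, 3 and 4 across the genes tested, a pairing seen in the values and not stated in the labels. Neighbouring numbers also deviated together, at 0.59 for Chd7 deletion 1 with wild type 2, 0.25 for deletion 3 with wild type 4 and 0.38 for deletion 4 with wild type 3, so the sets 1 and 2 against 3 and 4 share part of it. Reads were recovered for 26 members from whole-number steps with an error of up to 0.05 read, and cover counting only. Positions came from GENCODE M21 on GRCm38, the build that mm10 names. Tables and figures used matplotlib 3.10.9, pandas 2.3.3 and numpy 2.4.6 in Python 3.11.15, and the steps were tested on simulated data. There the test recovered 68% of 1.5-fold, 72% of 2-fold and 100% of 3-fold changes, placed in genes above a set level. Smaller changes of members can therefore be missed. The simulated noise was independent between libraries, without the sets of library numbers seen in the data. Some tested members, such as Smad9, lie below the level used, so these percentages need not hold for the members. Alternatives covered the block, the number set, scaling, pseudocount, filter, variance model, weights and each library left out.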

Additional observations from a re-analysis of the deposited data

How the results depend on the processing

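The 1 member called, Bmpr1b, kept its direction in every alternative run (log2 fold change -0.69 to -0.45), and its adjusted p ranged from 0.00335 to 0.12. The count of members called was 1 with the replicate block, 3 with the number set as a covariate, and 0 in libraries numbered 3 and 4, with no filter, at a mean of at least 5 FPKM (where Bmpr1b is not tested), and without each library (0 to 0). The count over all genes was 366 with the replicate block, 720 with the covariate, 62 with no filter, 32 at 5 FPKM, 156 with median-of-ratios scaling, 213 with library weights, and 4 to 72 without one library, the lowest when wild type 3 or Chd7 deletion 4 was left out. It was 12 without Chd7 deletion 3, and leaving out wild type 1, 2 or 4 gave 40, 35 and 53. With equal sums 83 were higher and 64 lower, beside 45 and 53. The count of other pathway genes and targets was 13 with the replicate block, 19 with the covariate, 5 in libraries numbered 3 and 4, 6 with median-of-ratios scaling, 5 with weights, and 0 to 3 without one library. The causes were not tested.

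Of 599 values of tested members under alternatives, 550 kept direction and side of the threshold, and 38, of 13 members near 0, changed sign. With equal sums these were Tgfb2 (0.013), Acvr1b (0.040), Bmpr2 (0.012), Acvr2a (0.055), Acvr2b (0.056), Smad1 (0.016), Smad5 (0.0068), Smad2 (0.045) and Smad4 (0.047). With median-of-ratios scaling they were Acvr1b (0.020), Acvr2a (0.034), Acvr2b (0.033), Smad2 (0.024) and Smad4 (0.025). With library weights, whose estimation stopped before convergence, they were Tgfb2 (0.090), Acvrl1 (0.057) and Bambi (0.049), and in libraries numbered 3 and 4 Tgfb2 (0.013) and Eng (-0.095). Acvr2b was at 0.0032 with the replicate block and 0.0034 with the covariate, and Eng at -0.046 and -0.0032. Without one library the ranges crossed 0 for Tgfb2 (-0.17 to 0.064), Acvr1b (-0.048 to 0.011), Acvrl1 (-0.16 to 0.012), Acvr2a (-0.080 to 0.073), Acvr2b (-0.055 to 0.026), Eng (-0.046 to 0.15), Smad1 (-0.091 to 0.019), Smad4 (-0.041 to 0.0015), Nog (-0.058 to 0.17), Bambi (-0.22 to 0.043) and no others. Inhbb, tested with no filter and a pseudocount of 0.1 (chosen after seeing the data), was at -0.0051, and at 0.013 with a pseudocount of 1. Among members the replicate block changed no call. Depth limits members below 0.1 FPKM, on 25 reads or fewer per library.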
